A study of Mus musculus with 32 samples.

Results

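Interferon-inducible GTPases are large guanine nucleotide-binding proteins that cells make after exposure to interferon. The main families in the mouse are the immunity-related GTPases (IRG) and the guanylate-binding proteins (GBP). Both act at the membrane of vacuoles that hold intracellular pathogens. Interferon gamma binds its receptor on the cell surface, and the signal reaches GAS elements in the promoters of these genes. IRF1, itself induced by interferon gamma, binds ISRE elements in the same promoters. In liver, hepatocytes, Kupffer cells (the resident macrophages) and endothelial cells can all respond in this way.

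The 10 genes described here were picked by symbol from the 24197 genes of the table, and all 10 were found. Of these, 6 are IRG genes (Tgtp1, Tgtp2, Igtp, Iigp1, Irgm1 and Irgm2) and 4 are GBP genes (Gbp2, Gbp3, Gbp6 and Gbp7). The list was drawn up with the results of the same liver comparisons known, so the values in those comparisons describe the genes and are no test of them. The liver RNA came from 32 outbred Crl:CD1(ICR) mice in 8 groups, each given a locked nucleic acid oligonucleotide (LNA) under the skin at 9 weeks of age, in 2 doses of 25 mg/kg on consecutive days. Females received LNA-802, an antisense inhibitor of miR-802-5p, and were studied at day 3 and at day 6 with 5 mice a group. Males received LNA-1948, an inhibitor of miR-1948-5p, again with 5 mice at each day. The reference was a scrambled LNA given to females and to males, with 3 mice at each sex and day, so every mouse in the study carried an LNA and no uninjected liver was measured. Inhibitor and sex cannot be told apart, nor can the day and the library series it was made in. Poly(A) RNA was sequenced with strand-directional libraries, and the deposited table holds 1 mean FPKM per gene and group, a read level scaled for transcript length and for the number of mapped fragments, with no value for a single mouse.

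The oligonucleotides show which bases the inhibitor covers. In miR-802-5p the capitals mark the seed, bases 2 to 8, and in LNA-802 they mark the bases that pair with that seed. LNA-802 pairs with bases 2 to 16 of the microRNA, and the scrambled LNA lacks the seed match. The microRNA is credited to RefSeq (GRCm38.p6, chr16:93369737-93369758, plus strand).
miR-802-5p: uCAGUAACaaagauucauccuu
LNA-802: gaatctttGTTACTG
scrambled LNA: acgtctatacgccca

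The tissue was checked by marker genes fixed in lists. All 9 hepatocyte markers passed 1 FPKM, led by Alb (albumin) at 14069 to 22690 FPKM over the 8 groups, and the 9 endothelial markers and all 12 Kupffer markers in the table passed as well. No marker of T and NK cells, B and plasma cells or neutrophils reached 1 FPKM in any group. The expression of each gene below is therefore that of whole liver, in which fewer cells of a type and less RNA per cell cannot be told apart.

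All 10 GTPase genes had their highest mean in the scrambled-LNA females at day 3. Of the 9758 genes that reached 1 FPKM in any group, 928 (9.51%) had their highest mean there. The summed level of the 10 genes was 109 FPKM in LNA-802 females at day 3, against 211 FPKM in scrambled-LNA females at day 3. It was 99.9 FPKM in LNA-802 females at day 6, against 123 FPKM in scrambled-LNA females of that day. In males the sum was 125 FPKM with LNA-1948 at day 3, against 105 FPKM with scrambled LNA, and 97.2 FPKM with LNA-1948 at day 6, against 106 FPKM with scrambled LNA. The sum outside scrambled-LNA females at day 3 thus lay between 97.2 and 125 FPKM.

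**Figure D1:**
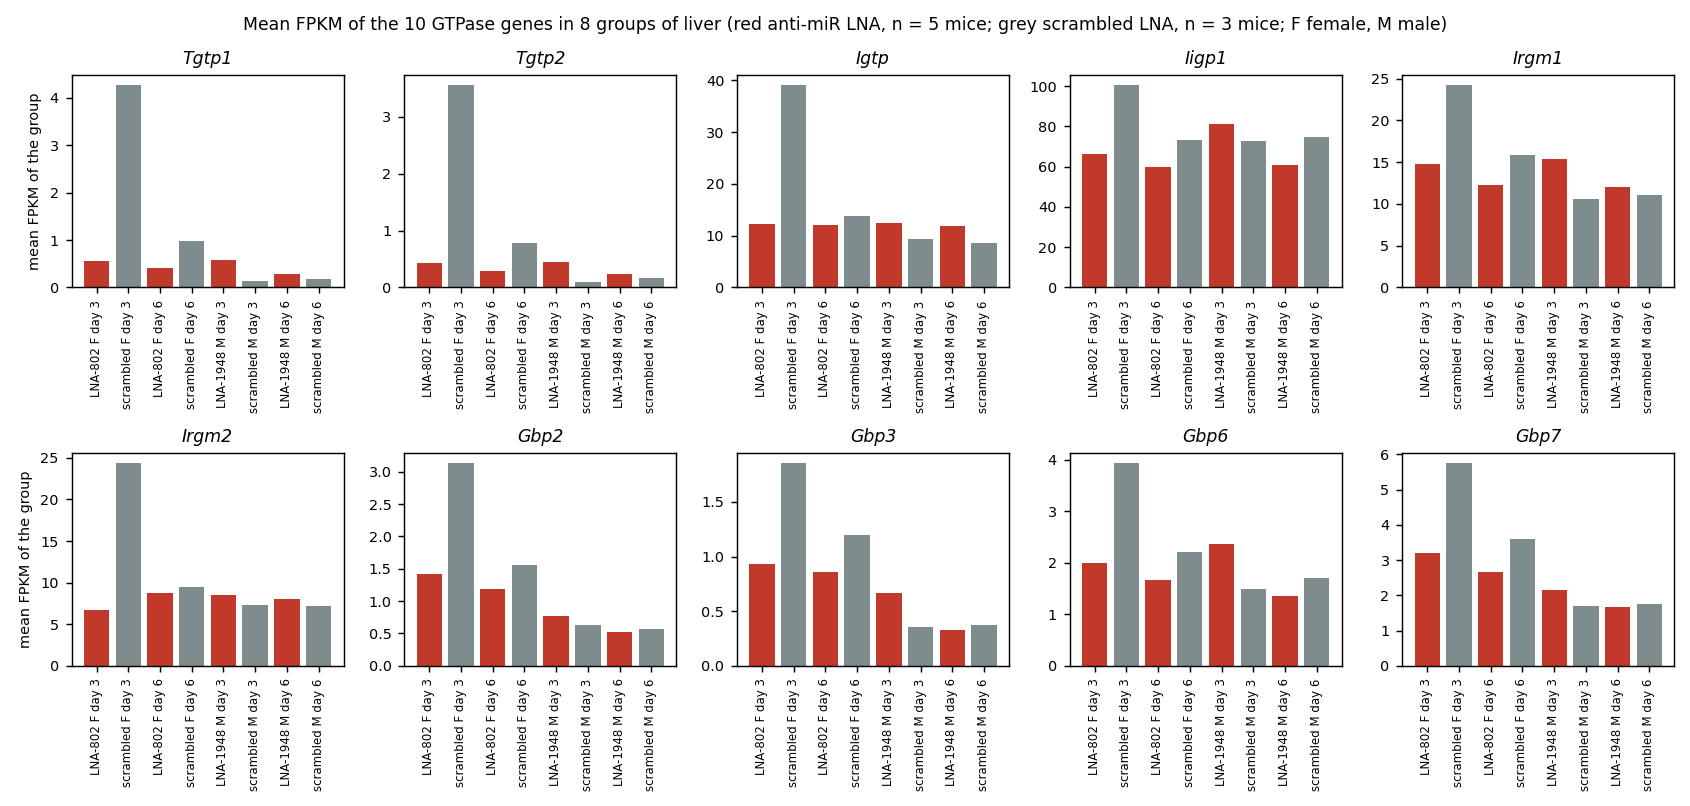
Mean FPKM (y axis, from 0, a separate scale for each gene) of the 10 GTPase genes in the 8 groups (x axis), with anti-miR LNA in red (5 mice a group) and scrambled LNA in grey (3 mice a group). The bar of scrambled-LNA females at day 3 is the tallest in every panel, and no error bars are drawn because no values per mouse were used.

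Tgtp1 and Tgtp2 encode the T-cell-specific GTPases, IRG proteins that load onto vacuole membranes. They were the lowest genes of the list in most groups and the most variable. Tgtp1 had 0.564 FPKM in LNA-802 females at day 3, against 4.28 FPKM in scrambled-LNA females at day 3, and 0.414 FPKM in LNA-802 females at day 6, against 0.984 FPKM in scrambled-LNA females at day 6. In males Tgtp1 had 0.581 FPKM with LNA-1948 at day 3, against 0.144 FPKM with scrambled LNA, and 0.288 FPKM with LNA-1948 at day 6, against 0.169 FPKM with scrambled LNA. Only the scrambled-LNA females at day 3 passed 1 FPKM, and the next highest mean, in scrambled-LNA females at day 6, was 4.35 times lower. Tgtp2 had 0.436 FPKM in LNA-802 females at day 3, against 3.57 FPKM in scrambled-LNA females at day 3, and 0.286 FPKM in LNA-802 females at day 6, against 0.789 FPKM in scrambled-LNA females at day 6. In males Tgtp2 had 0.449 FPKM with LNA-1948 at day 3, against 0.104 FPKM with scrambled LNA, and 0.238 FPKM with LNA-1948 at day 6, against 0.167 FPKM with scrambled LNA. The longest annotated transcripts of Tgtp1 and Tgtp2 are 99.8% identical over 2810 bases (GENCODE on GRCm38), and the authors' table lists the Tgtp1 locus as a second location of Tgtp2. Reads could have been divided between the 2 genes in counting, so the value of either alone is uncertain.

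Igtp and Irgm2 showed the same peak at a higher level. Igtp, also known as Irgm3, and Irgm2 belong to the regulatory IRG proteins, which keep the effector IRG proteins inactive on the cell's own membranes. Igtp had 12.3 FPKM in LNA-802 females at day 3, against 39.1 FPKM in scrambled-LNA females at day 3, and 12.1 FPKM in LNA-802 females at day 6, against 13.7 FPKM in scrambled-LNA females at day 6. In males Igtp had 12.5 FPKM with LNA-1948 at day 3, against 9.45 FPKM with scrambled LNA, and 11.8 FPKM with LNA-1948 at day 6, against 8.57 FPKM with scrambled LNA. The 3 female means other than scrambled LNA at day 3 lay within 1.13-fold of each other, and the fourth stood 2.86 times above the highest of them. Irgm2 had 6.65 FPKM in LNA-802 females at day 3, its lowest mean of all, against 24.4 FPKM in scrambled-LNA females at day 3. At day 6 Irgm2 had 8.72 FPKM in LNA-802 females, against 9.44 FPKM in scrambled-LNA females. Its 4 male means lay between 7.24 and 8.53 FPKM, inside the range of the other 3 female means.

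Irgm1, the third regulatory IRG protein, varied less. Irgm1 had 14.8 FPKM in LNA-802 females at day 3, against 24.3 FPKM in scrambled-LNA females at day 3, and 12.3 FPKM in LNA-802 females at day 6, against 15.8 FPKM in scrambled-LNA females at day 6. Its male means were 15.4 FPKM with LNA-1948 at day 3, against 10.6 FPKM with scrambled LNA, and 12.0 FPKM with LNA-1948 at day 6, against 11.1 FPKM with scrambled LNA. Iigp1, an effector IRG protein also called Irga6, was by far the most abundant of the 10 on the FPKM scale and the flattest. Iigp1 had 66.5 FPKM in LNA-802 females at day 3, against 101 FPKM in scrambled-LNA females at day 3, and 59.7 FPKM in LNA-802 females at day 6, against 73.3 FPKM in scrambled-LNA females at day 6. Its male means were 81.4 FPKM with LNA-1948 at day 3, against 72.8 FPKM with scrambled LNA, and 61.0 FPKM with LNA-1948 at day 6, against 74.6 FPKM with scrambled LNA. Iigp1 alone supplied 47.7% of the summed FPKM in scrambled-LNA females at day 3, where its share was lowest, and 70.2% in scrambled-LNA males at day 6, where it was highest.

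The 4 GBP genes were low and shared 1 order of the female groups, with scrambled LNA at day 3 highest, then scrambled LNA at day 6, LNA-802 at day 3 and LNA-802 at day 6. The IRG genes had this order too, apart from Irgm2. Gbp2 encodes a GBP protein that gathers on pathogen vacuoles, and had 1.41 FPKM in LNA-802 females at day 3, against 3.13 FPKM in scrambled-LNA females at day 3. Gbp2 then had 1.19 FPKM in LNA-802 females at day 6, against 1.55 FPKM in scrambled-LNA females at day 6, and its 4 male means were lower, at 0.521 to 0.775 FPKM. Gbp3 had 0.933 FPKM in LNA-802 females at day 3, against 1.86 FPKM in scrambled-LNA females at day 3, and 0.858 FPKM in LNA-802 females at day 6, against 1.19 FPKM in scrambled-LNA females at day 6. Its male means were 0.329 to 0.664 FPKM. Gbp2, Gbp3 and Gbp7 had every female mean above every male mean, as did 17.8% of the 9758 genes at 1 FPKM in any group. Gbp7, known in mouse macrophages for a part in assembling the oxidase at vacuoles, had 3.20 FPKM in LNA-802 females at day 3, against 5.75 FPKM in scrambled-LNA females at day 3. It had 2.66 FPKM in LNA-802 females at day 6, against 3.59 FPKM in scrambled-LNA females at day 6, and 1.67 to 2.15 FPKM in the male groups. Gbp6 had 1.99 FPKM in LNA-802 females at day 3, against 3.94 FPKM in scrambled-LNA females at day 3, and 1.67 FPKM in LNA-802 females at day 6, against 2.21 FPKM in scrambled-LNA females at day 6. Its second highest mean was that of LNA-1948 males at day 3, at 2.37 FPKM, against 1.49 FPKM in scrambled-LNA males at day 3.

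The comparison of LNA-802 with scrambled LNA in females at day 3 asks what inhibiting miR-802-5p does to liver RNA. No GTPase gene reached an edgeR adjusted p under 0.05 in the authors' deposited table, where 0.0165% of all genes did. At an unadjusted p under 0.05, 10 of the 10 were lower, beside 1.68% of all genes called lower by that rule, and nothing is read from this count because the list came from the same comparison. Tgtp2 was 8.38-fold lower with LNA-802 in the authors' deposited table (edgeR unadjusted p = 0.000127, adjusted p = 0.191) and Tgtp1 was 7.76-fold lower (unadjusted p = 0.000317, adjusted p = 0.232). Irgm2 was 3.76-fold lower (unadjusted p = 0.000114, adjusted p = 0.191) and Igtp was 3.26-fold lower (unadjusted p = 0.00142, adjusted p = 0.522) in the authors' deposited table with edgeR. The other 6 genes were 1.55- to 2.28-fold lower in the authors' deposited table, each with an edgeR adjusted p of 1. The median log2 ratio of the 10 genes in the authors' deposited table was -1.11, with a range from -3.07 to -0.63, beside a median of 0.01 over the 9418 genes at 1 FPKM in either group, of which 46.6% were below 0. All 10 genes reached 1 FPKM in this comparison, Tgtp1, Tgtp2 and Gbp3 through the scrambled-LNA group alone. In the authors' deposited table the 6 IRG genes had a median log2 ratio of -1.81 and the 4 GBP genes one of -1.02.

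The approximate standard error of these ratios had a larger median for the GTPase genes than for the genes at 1 FPKM. It is had by dividing a log2 ratio by the normal deviate of its unadjusted p. At a given p the error thus grows with the ratio, and the GTPase genes were picked with these ratios known. Setting them beside all genes is therefore a description, and the spread between mice is unknown. In females at day 3 the median of this error was 0.47 over the 10 genes. It was 0.164 over the 8162 genes at 1 FPKM that remained once those with the highest unadjusted p were left out. In females at day 6 the median was 0.23 over the 10 genes and 0.150 over all genes kept by the same rule. Each of the 10 genes had a larger error at day 3 than at day 6 in females, by 1.60 to 2.52 times. For LNA-1948 against scrambled LNA in males the median over the 10 genes was 0.28 at day 3 and 0.21 at day 6. For scrambled-LNA males against females it was 0.60 at day 3 and 0.17 at day 6. The median errors of the list were thus larger in the comparisons that use scrambled-LNA females at day 3. Its median log2 ratios were also largest in size there. Whether 1 of those 3 mice carries the peak was not tested, since the table has no values per mouse.

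In females at day 6 the 10 genes again had log2 ratios below 0 in the authors' deposited table, with a median of -0.38 and a range from -1.45 to -0.10. The median over the 9457 genes at 1 FPKM in either group was 0.01, with 47.6% below 0. Of the 10 GTPase genes, 8 reached 1 FPKM in this comparison and 6 did so in either male comparison. No GTPase gene was called at an edgeR adjusted p under 0.05, beside 0.339% of all genes in the authors' deposited table. At an unadjusted p under 0.05, 4 of the 10 were lower in the authors' deposited table (edgeR), beside 2.44% of all genes, namely Tgtp1, Tgtp2, Irgm1 and Gbp7. Tgtp2 was 2.73-fold lower with LNA-802 (edgeR adjusted p = 0.107) and Tgtp1 was 2.36-fold lower (adjusted p = 0.598) in the authors' deposited table. Igtp and Irgm2, which were over 3-fold lower at day 3, were 1.12- and 1.07-fold lower at day 6 in the authors' deposited table. The Kupffer markers moved with the GTPase genes here too, with 11 of 11 log2 ratios below 0, a median of -0.29 and 6 of the 11 at an edgeR unadjusted p under 0.05 in the authors' deposited table. They summed to 78.1 FPKM in LNA-802 females at day 6, against 98.4 FPKM in scrambled-LNA females at day 6, and their part in the result was not tested. The difference between the days was not tested. The 2 days have separate mice in both arms.

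**Figure D2:**
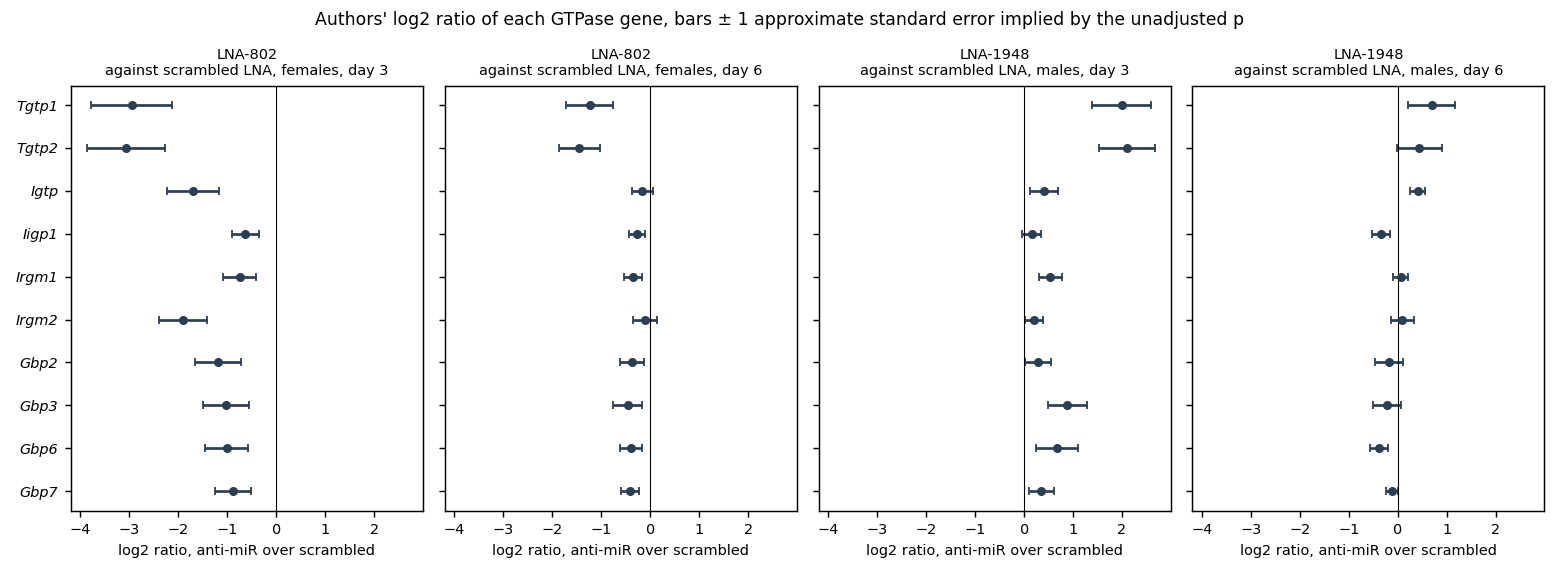
Authors' log2 ratio of anti-miR LNA over scrambled LNA (x axis) for the 10 GTPase genes (rows) in the 4 comparisons, with bars of 1 approximate standard error to either side. All 10 points lie below 0 in females at both days and above 0 in males at day 3, while at day 6 in males 5 lie on each side.

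In males at day 3 the log2 ratios lay on the other side of 0 from those in females, a difference that was not tested. All 10 genes had log2 ratios above 0 for LNA-1948 over scrambled LNA in the authors' deposited table, with a median of 0.47 and a range from 0.16 to 2.09. Over the 9258 genes at 1 FPKM in either group the median was -0.01, with 52.7% below 0. None was called at an edgeR adjusted p under 0.05, beside 0.0537% of all genes in the authors' deposited table. At an unadjusted p under 0.05, 4 of the 10 were higher in the authors' deposited table (Tgtp1, Tgtp2, Irgm1 and Gbp3), beside 1.75% of all genes. Tgtp2 was 4.26-fold higher with LNA-1948 (edgeR adjusted p = 0.183) and Tgtp1 was 3.97-fold higher (adjusted p = 0.455) in the authors' deposited table, from means under 1 FPKM in both male groups. The Kupffer markers moved with the GTPase genes in this comparison. All 11 that passed 1 FPKM had log2 ratios above 0 in males at day 3, with a median of 0.53, and 10 of the 11 had an edgeR unadjusted p under 0.05 in the authors' deposited table. Clec4f, which marks Kupffer cells, had 14.8 FPKM with LNA-1948 at day 3, against 10.8 FPKM with scrambled LNA in males. All 9 endothelial markers had log2 ratios above 0 as well, with a median of 0.15, and 5 of 9 hepatocyte markers did, with a median of 0.03. The part of any of these cells in the male result was not tested. At day 6 in males the 10 genes were divided, with 5 log2 ratios above 0 and 5 below, a median of -0.04, and no gene called beside 0.124% of all genes in the authors' deposited table. Over the 9200 genes at 1 FPKM in either group the median was 0.01, with 47.6% below 0. At an unadjusted p under 0.05, 1 of the 10 was higher, beside 1.29% of all genes, and this was Igtp (1.32-fold, edgeR adjusted p = 0.920 in the authors' deposited table). By the same rule 1 of the 10 was lower, beside 1.78% of all genes, and this was Gbp6 (1.30-fold, edgeR adjusted p of 1 in the authors' deposited table).

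Scrambled-LNA males and females can be set against each other without an inhibitor, which gives the level of the genes by sex. These comparisons share the scrambled-LNA females with the LNA-802 comparisons of the same day, so the 2 sets of values are not independent. At day 3, 5 of the 10 genes were lower in males at an edgeR adjusted p under 0.05 and none was higher, beside 1.99% of all genes called lower in the authors' deposited table. These were Tgtp2 (33.6-fold lower in males, edgeR adjusted p = 0.000237), Tgtp1 (29.04-fold, adjusted p = 0.00109), Gbp3 (5.12-fold, adjusted p = 0.00361), Gbp7 (3.38-fold, adjusted p = 0.00666) and Gbp2 (4.91-fold, adjusted p = 0.00765) in the authors' deposited table. At day 6, 6 of the 10 were lower in males, beside 2.52% of all genes called lower in the authors' deposited table, and none was higher. They were the same 5 genes and Igtp, with Tgtp1 and Tgtp2 under 1 FPKM in both sexes. Tgtp1 was then 5.33-fold lower in males (edgeR adjusted p = 1.2e-12), Tgtp2 4.35-fold (adjusted p = 2.6e-07), Gbp3 2.99-fold (adjusted p = 4.9e-06), Gbp2 2.56-fold (adjusted p = 1.7e-05), Gbp7 1.92-fold (adjusted p = 1.6e-07) and Igtp 1.497-fold (adjusted p = 0.0208) in the authors' deposited table. Irgm1 (edgeR adjusted p = 0.0639 at day 3 and 0.159 at day 6), Irgm2 (0.117 and 0.704) and Gbp6 (0.188 and 0.621) were not called at either day in the authors' deposited table. Over both days together, which reuses the same mice, 7 of the 10 were lower in males, beside 4.62% of all genes called lower in the authors' deposited table, and these were the 6 of day 6 and Irgm1 (1.79-fold, edgeR adjusted p = 0.0176). Iigp1 was not called at either day or over both, and the authors' deposited table gives it log2 ratios of -0.45 at day 3 and 0.12 at day 6. The Kupffer markers summed to 54.9 FPKM in scrambled-LNA males at day 3, against 94.8 FPKM in scrambled-LNA females at day 3, and to 57.2 FPKM in males at day 6, against 98.4 FPKM in females. At day 3 all 9 endothelial markers were also lower in males, with a median log2 ratio of -0.27, as were 6 of 9 hepatocyte markers, with -0.02. With no filter on low values 12 of 13 T and NK cell markers and 9 of 9 monocyte and dendritic cell markers were lower. So were 2 of 5 B and plasma cell markers and 2 of 5 neutrophil markers. The part of any of these cells in the difference by sex was not tested.

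**Figure D3:**
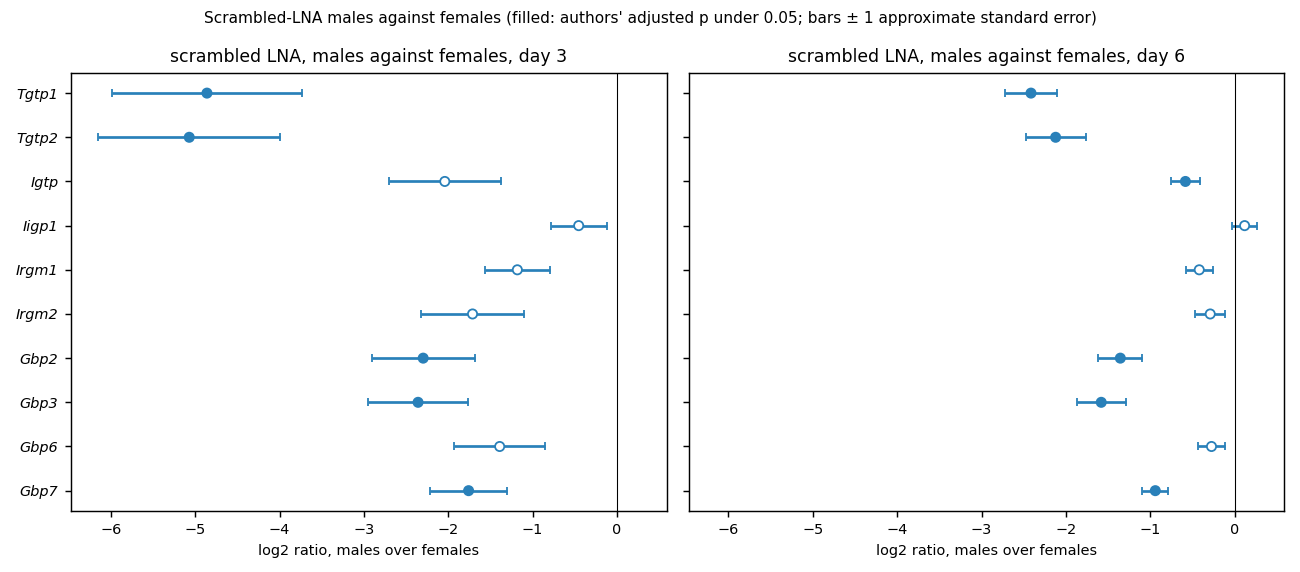
Authors' log2 ratio of scrambled-LNA males over scrambled-LNA females (x axis) for the 10 GTPase genes (rows) at day 3 (left) and day 6 (right), with bars of 1 approximate standard error and filled points for an adjusted p under 0.05. Of the filled points, 5 are at day 3 and 6 at day 6, all of them below 0.

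Day 6 against day 3 was described within each treatment and sex as a difference in log2(mean FPKM + 1), with no test. In scrambled-LNA females all 10 genes were lower at day 6, with a median of -0.66 and a range from -1.45 to -0.38. Over the 9478 genes at 1 FPKM at either day the median was 0.03, and 38.4% were lower at day 6. In LNA-802 females 9 of the 10 were lower at day 6, with a median of -0.15, and Irgm2 had the only difference above 0, at 0.34. Of all genes at 1 FPKM at either day, 54.8% were lower there. In LNA-1948 males all 10 were lower at day 6, with a median of -0.27, and in scrambled-LNA males 3 of the 10 were lower, with a median of 0.03. By the same rule 42.5% of all genes were lower in LNA-1948 males and 64.6% in scrambled-LNA males. The mean levels in LNA-802 females thus moved little between the days, while those of their scrambled-LNA controls were lower at day 6. With a pseudocount of 0.1 in place of 1 the medians were -0.23 in LNA-802 females, -0.46 in LNA-1948 males, -0.89 in scrambled-LNA females and 0.05 in scrambled-LNA males. The order of the genes also rests on this choice: in scrambled-LNA females Igtp had the lowest value at a pseudocount of 1, at -1.45, and Tgtp2 at a pseudocount of 0.1, at -2.04.

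The 10 genes varied together across the groups. Over the 8 group means of log2(FPKM + 1), the 45 pairs of genes had Pearson r between 0.56 and 0.998, with a median of 0.90. These points share libraries and the group that peaks, so r is a description. Iigp1 followed the average of the list least (r = 0.76) and Tgtp1 most (r = 0.997). Among the 466 other genes with at least 1 FPKM in any group and a range of at least 1 on that log2 scale, 9 of the 10 most like the average of the list were Gm12250, Cxcl10, Gbp2b, Gbp4, Cd274, Tap1, Serpina3f, Serpina3g and Cyp26b1, with r from 0.992 to 0.958 over the 8 groups. The average of the list peaks in scrambled-LNA females at day 3, so genes picked by this r share that peak by the choice. Cxcl10, Cd274 and Serpina3f passed 1 FPKM in that group alone. Gm12250 had 0.913 FPKM in LNA-802 females at day 3, against 4.71 FPKM in scrambled-LNA females at day 3. Cxcl10, a chemokine for activated T cells, had 0.806 FPKM in LNA-802 females at day 3, against 1.87 FPKM in scrambled-LNA females at day 3. Cyp26b1, which breaks down retinoic acid, had 0.935 FPKM in LNA-802 females at day 3, against 3.54 FPKM in scrambled-LNA females at day 3. With a pseudocount of 0.1 in place of 1, 7 of the 10 genes stayed among the 10 most alike. Serpina3f, Serpina3g and Cyp26b1 did not.

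**Figure D4:**
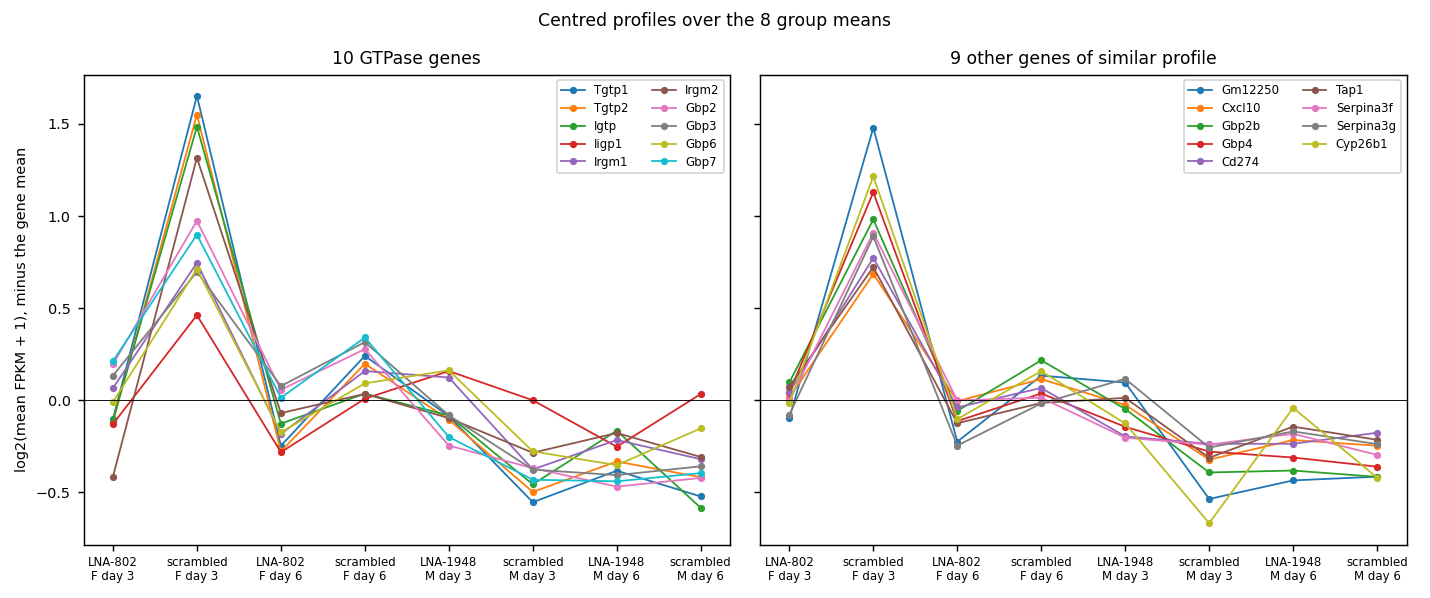
Log2(mean FPKM + 1) minus the mean of the gene (y axis) over the 8 groups (x axis) for the 10 GTPase genes (left) and 9 of the 10 other genes of most similar profile (right). Scrambled-LNA females at day 3 form the peak in both panels, on the right because the genes were picked by r with the average of the list. The lowest r with that average on the right is 0.958.

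The rest of the interferon pathway was read from lists written with earlier results of these data known. Of the other interferon-inducible GTPase genes, 11 passed 1 FPKM in females at day 3, and all 11 had log2 ratios below 0 with a median of -0.80 in the authors' deposited table. Some of the 11, Gm12250 among them, passed in the scrambled-LNA group alone, which fixes the sign of their ratio. With no filter on low values 15 of 16 were below 0 and 1 was above. None was called at an edgeR adjusted p under 0.05. Gm12250 was 5.29-fold lower and Gbp10 2.31-fold lower with LNA-802 in females at day 3 in the authors' deposited table, with edgeR unadjusted p of 0.000832 and 0.0258. In males at day 3, 5 of 9 log2 ratios of this list were above 0 and 4 below in the authors' deposited table, with a median of 0.56. Without the filter 11 of 16 were above 0 and 5 below.

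The ligand was at or near 0 in every group. Ifng, the gene of interferon gamma, had at most 0.0224 FPKM, and it and 6 genes of type I and III interferons stayed under 0.1 FPKM in all 8 groups. The receptor gene Ifngr1 had 4.80 FPKM in LNA-802 females at day 3, against 4.61 FPKM in scrambled-LNA females at day 3. Its partner Ifngr2 had 4.44 FPKM in LNA-802 females at day 3, against 4.02 FPKM in scrambled-LNA females at day 3. Neither receptor gene showed the peak. Of the 12 signalling genes at 1 FPKM, 9 had log2 ratios below 0 in females at day 3 in the authors' deposited table, with a median of -0.13 and no gene called. For the transcription factor gene Irf1 the authors' deposited table gives a log2 ratio of -0.70 (edgeR unadjusted p = 0.0277). Irf1 had 5.27 FPKM in LNA-802 females at day 3, against 8.33 FPKM in scrambled-LNA females at day 3.

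Other interferon targets were mixed in females at day 3. Of 11 antigen presentation genes at 1 FPKM, 8 had log2 ratios below 0 in the authors' deposited table, with a median of -0.16 and none called. Tap1, a peptide transporter subunit, had 3.62 FPKM in LNA-802 females at day 3, against 6.25 FPKM in scrambled-LNA females at day 3. Cd74, the invariant chain of MHC class II, had 15.6 FPKM in LNA-802 females at day 3, against 23.7 FPKM in scrambled-LNA females at day 3. Psmb8, an immunoproteasome subunit, had 9.90 FPKM in LNA-802 females at day 3, against 8.86 FPKM in scrambled-LNA females at day 3, and so did not show the peak. Of 7 further genes induced by interferon gamma at 1 FPKM, 5 had log2 ratios below 0 with a median of -0.19 and none called in the authors' deposited table. Of these, Cxcl10 and Cd274 passed in the scrambled-LNA group alone. With no filter on low values 9 of 13 were below 0 and 3 were above. Cd274, the gene of PD-L1, was 3.07-fold lower with LNA-802 in females at day 3 (edgeR unadjusted p = 0.0013, adjusted p = 0.491) in the authors' deposited table. Cxcl9, a chemokine that interferon gamma induces, had 1.88 FPKM in LNA-802 females at day 3, against 1.80 FPKM in scrambled-LNA females at day 3.

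Genes best known as targets of type I interferon formed a separate list. Of 15 at 1 FPKM in females at day 3, 13 had log2 ratios below 0 with a median of -0.20, and 1 had an edgeR unadjusted p under 0.05 in the authors' deposited table. Isg15, a ubiquitin-like modifier, had 3.65 FPKM in LNA-802 females at day 3, against 4.41 FPKM in scrambled-LNA females at day 3. In males at day 3 all 16 at 1 FPKM had log2 ratios above 0, with a median of 0.74, in the authors' deposited table. Some of them passed in the LNA-1948 group alone, and with no filter on low values 23 of 23 were above 0. Ifi27l2a was the only gene called, 4.14-fold higher with LNA-1948 (edgeR adjusted p = 0.0051), in the authors' deposited table. It had 1.00 FPKM with LNA-1948 at day 3, against 0.240 FPKM with scrambled LNA in males. Ifi27l2a thus barely passed 1 FPKM, and in the LNA-1948 group alone. Irf7, a transcription factor of the type I response, had 6.42 FPKM with LNA-1948 at day 3, against 2.46 FPKM with scrambled LNA in males. In females at day 6 Ifit3, the gene of an antiviral protein, was the only one of the list called, at 0.776 FPKM with LNA-802, against 2.10 FPKM with scrambled LNA. The authors' deposited table gives it a log2 ratio of -1.41 (edgeR adjusted p = 0.00417).

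Markers of the cell types a liver sample can hold were read beside the GTPase genes in females at day 3. The 12 Kupffer markers summed to 87.5 FPKM in LNA-802 females at day 3, against 94.8 FPKM in scrambled-LNA females at day 3, with 12 of 12 log2 ratios below 0 and a median of -0.21 in the authors' deposited table. Clec4f had 16.7 FPKM in LNA-802 females at day 3, against 16.6 FPKM in scrambled-LNA females at day 3. The macrophage genes C1qc and Lyz2 had 9.81 and 7.15 FPKM in LNA-802 females at day 3, against 11.5 and 7.19 FPKM in scrambled-LNA females at day 3. Over the 8 groups the Kupffer sum ranged from 54.9 FPKM in scrambled-LNA males at day 3 to 98.4 FPKM in scrambled-LNA females at day 6, so its highest group was not that of the GTPase genes. The 13 T and NK cell markers in the table summed to 2.06 FPKM in LNA-802 females at day 3, against 2.12 FPKM in scrambled-LNA females at day 3, the highest of the 8 groups, with the lowest at 0.989 FPKM. Cd8a, Ncr1 and Prf1 stayed under 0.1 FPKM in all groups. The 9 monocyte and dendritic cell markers summed to 3.01 FPKM in LNA-802 females at day 3, against 3.59 FPKM in scrambled-LNA females at day 3, with Itgax, Flt3 and Xcr1 under 0.1 FPKM in all groups. This sum, like that of the T and NK cell markers, was highest in the group in which the GTPase genes peaked, and over the 8 groups it ranged from 2.24 to 3.59 FPKM. The part of these cells was not tested. Ly6c2, a monocyte gene, had 1.93 FPKM in LNA-802 females at day 3, against 2.28 FPKM in scrambled-LNA females at day 3. The 9 endothelial markers summed to 67.5 FPKM in LNA-802 females at day 3, against 62.4 FPKM in scrambled-LNA females at day 3. Of these, Clec4g had 25.9 FPKM with LNA-802, against 21.5 FPKM with scrambled LNA, and Eng had 10.03 FPKM with LNA-802, against 9.69 FPKM with scrambled LNA. The hepatocyte gene Serpina1a had 388.2 FPKM in LNA-802 females at day 3, against 392.3 FPKM in scrambled-LNA females at day 3. The B and plasma cell markers summed to at most 1.18 FPKM and the neutrophil markers to at most 1.11 FPKM in any group.

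The 10 genes lie in 5 places of the genome (mm9, coordinates of the authors' table). Irgm1, Tgtp1 and Tgtp2 span 199 kb at chr11:48678750-48877714, and Igtp and Irgm2 span 23 kb at chr11:58013057-58036285. Gbp7, Gbp3 and Gbp2 span 108 kb at chr3:142193299-142300972, while Gbp6 lies at chr5:105699720-105722718 and Iigp1 on chromosome 18. Within 500 kb of these, 28 genes outside the GTPase families passed 1 FPKM. Their median log2 ratio in females at day 3 was 0.04 in the authors' deposited table, from -0.70 to 0.38, and 3 of the 28 had an edgeR unadjusted p under 0.05. Of these 3, those with lower values were Cd74 and Mir5107, both near Iigp1, for which the authors' deposited table gives log2 ratios of -0.64 and -0.70. Mir5107 lies inside the Cd74 locus, so their reads may be shared.

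**Figure D5:**
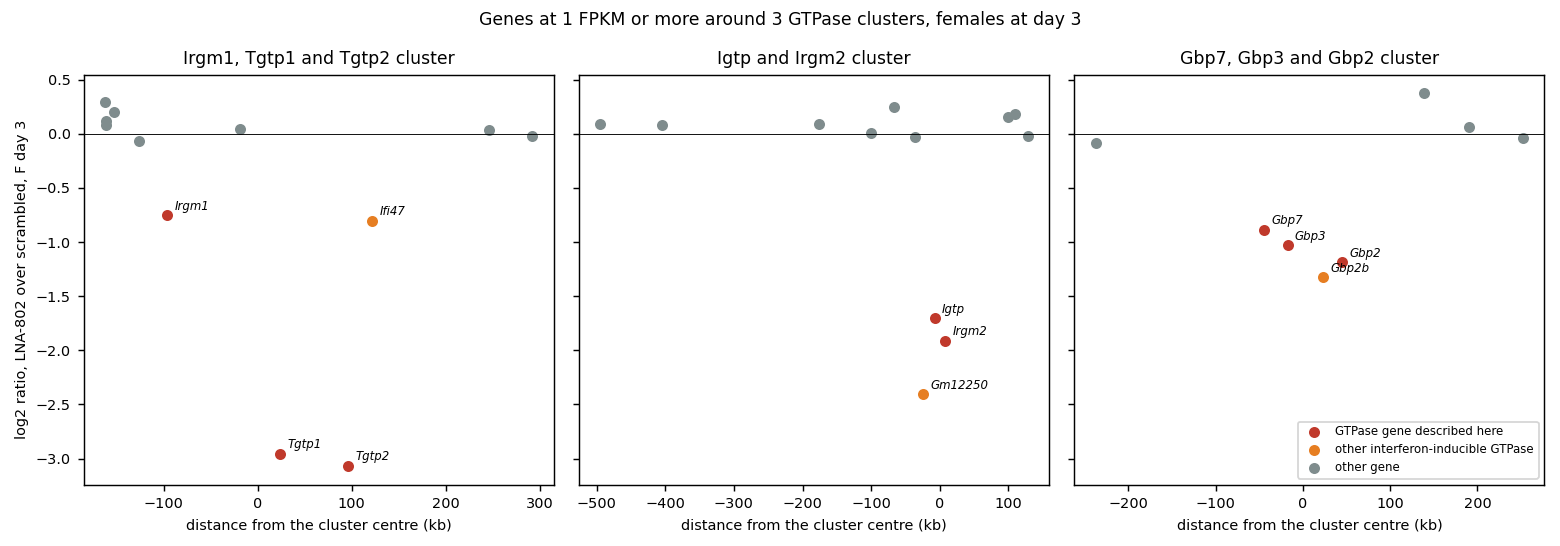
Authors' log2 ratio of LNA-802 over scrambled LNA in females at day 3 (y axis) against distance in kb from the centre of the 3 gene clusters (x axis), for genes at 1 FPKM or more, with the GTPase genes described here in red, other interferon-inducible GTPase genes in orange and other genes in grey. The red and orange points lie between -3.07 and -0.75, and the grey points reach 0.38 at the most. The regions of Gbp6 and Iigp1 are not drawn. There the GTPase genes lay between -1.73 and -0.16, with Iigp1 at -0.63, and genes outside the families reached down to -0.70.

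The promoters were read for the 2 elements of the pathway. RefSeq windows from 250 bases before to 50 bases after the gene start (GRCm38.p6) were read for 8 of the 10 genes, in 9 windows. Iigp1 and Gbp6 were not read. A GAS element was searched as TTCNNNGAA and an ISRE as GAAANNGAAA on both strands. All 8 genes held an ISRE, beside 3.44% of the 32851 windows of the table, and 5 of the 8 held a GAS, beside 8.30% of the windows. In 4 of the genes (Tgtp1, Tgtp2, Igtp and Irgm2) a GAS stood 2 bases before an ISRE, and this block occurred in 5 of the 32851 windows, the other one being that of Gm12185. Among the 10 listed genes these 4 also had the lowest log2 ratios in females at day 3, which is a description of genes chosen on that comparison. Outside the list, Gm12250 was not among the genes found with the block. Its log2 ratio there was -2.40 in the authors' deposited table, lower than the -1.91 of Irgm2 and the -1.70 of Igtp. Tgtp1 and Tgtp2 are close copies, so the 4 genes are not separate cases. A link between the block and the ratio was not tested. The stretches of 60 bases around the ISRE are given on the strand of the gene, with capitals for whole matches to either element, so that the block can be seen in the IRG genes and its absence from the stretches of Irgm1 and of the GBP genes. Gbp7 has 2 GAS matches further upstream, the nearer of which ends 25 bases before the ISRE and only reaches into the first bases of the stretch shown, which are left in lower case.
Tgtp1 (chr11:48992294-48992353, minus): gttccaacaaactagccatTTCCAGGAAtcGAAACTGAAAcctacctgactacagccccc
Tgtp2 (chr11:49064253-49064312, minus): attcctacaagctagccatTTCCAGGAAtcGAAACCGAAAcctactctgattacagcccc
Igtp (chr11:58199492-58199551, plus): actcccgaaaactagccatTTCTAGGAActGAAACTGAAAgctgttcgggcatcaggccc
Irgm2 (chr11:58214883-58214942, plus): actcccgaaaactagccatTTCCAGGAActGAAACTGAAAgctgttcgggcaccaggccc
Irgm1 (chr11:48871421-48871480, minus): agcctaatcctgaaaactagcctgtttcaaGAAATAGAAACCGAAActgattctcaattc
Gbp2 (chr3:142620574-142620633, plus): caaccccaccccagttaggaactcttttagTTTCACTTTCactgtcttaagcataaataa
Gbp3 (chr3:142559969-142560028, plus): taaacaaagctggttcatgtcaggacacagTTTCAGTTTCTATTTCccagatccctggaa
Gbp7 (chr3:142530253-142530312, plus): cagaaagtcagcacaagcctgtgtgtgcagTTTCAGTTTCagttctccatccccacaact

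The ISRE of the 4 block promoters begins 34 to 77 bases before the gene start and reads GAAACTGAAA in Tgtp1, Igtp and Irgm2 and GAAACCGAAA in Tgtp2. In the 3 GBP genes it lies on the opposite strand, where it appears as its reverse complement in the stretches. In Irgm1 and Gbp3 a pair of matches overlap by 4 bases. A match in these letters is not a measured binding site, and no binding data were part of the study.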

How the data were processed

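Liver poly(A) RNA of 32 mice in 8 groups was measured by RNA sequencing, per the labels. The submitters' processing notes name TopHat2, featureCounts, edgeR and the mm9 build. Versions and the edgeR test are not given in the sources used here. Per the file headers, the authors deposited FPKM values as 1 mean per group. The authors also deposited an expression ratio and a p-value, unadjusted and adjusted, for 7 comparisons, per the file headers. Because the table gives group means and no counts or values per mouse, depth and the spread between mice are unknown, no error stands beside a mean, and every p-value is the authors'.

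A check found the authors' adjusted values to be Benjamini-Hochberg adjustments over all 24197 genes. The members and lists were chosen with earlier results of these data known. No label says whether the mice of a group were housed or handled apart. All 10 members are covered in every comparison, singly or in counts and ranges. Of other genes, those named are list genes called at 1 FPKM or more, the 2 of each list with the widest range, a fixed set (Irf1, Ifng, Ifngr1, Cxcl9, Psmb8, Irf7, Isg15 and Clec4f) and the 10 of most similar profile. Mir5107, Gm12185 and the markers at or near 0 (Cd8a, Ncr1, Prf1, Itgax, Flt3 and Xcr1) were named after their values were seen. Results of 1 gene of the fixed set are not reported here. Neighbours with an IRG or GBP family name among their RefSeq synonyms (GRCm38.p6) were counted with the GTPase families. The approximate standard error, the Benjamini-Hochberg step and the profile measure were tested on simulated data. Alternatives were thresholds of 0.1 and 0.01, an adjustment over genes at 1 FPKM, ratios of mean FPKM with pseudocounts of 1 and 0.1, members with a mean of at least 1 FPKM, Tgtp1 and Tgtp2 summed, and no filter on low values. Python 3.11.15 with pandas 2.3.3 and Biopython 1.88 was used.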

Additional observations from a re-analysis of the deposited data

How the results depend on the processing

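Each anti-miR comparison called none of the 10 genes at thresholds of 0.1 and 0.01 and when p-values were adjusted over genes at 1 FPKM in either group. The median log2 ratio of the 10 genes in females at day 3 lay between -1.11 and -0.75 over the authors' ratio, ratios of mean FPKM with pseudocounts of 1 and 0.1, the members with a mean of at least 1 FPKM, and Tgtp1 and Tgtp2 summed. In males at day 6 the median of -0.04 turned to 0.0203 with a pseudocount of 1 and 0.0226 with a pseudocount of 0.1, and the cause was not tested. Over the same alternatives it ranged from -0.38 to -0.28 in females at day 6 and from 0.33 to 0.47 in males at day 3. The scrambled-LNA males against females had 7 genes called at day 3 at a threshold of 0.1 and 5 at 0.01, thresholds chosen after the data were seen. At day 6 the counts were 6 and 5. The share of all genes called at these thresholds was not computed, so nothing is read from the counts. Of 80 alternative ratios of single genes, 9 moved by more than their approximate standard error and none changed sign, and 8 of the 9 were Tgtp1 or Tgtp2. No paired analysis was possible because the table holds group means and no values per mouse. For the same reason no mouse could be left out in turn. Protein identity was not run, and transcripts were compared instead.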
